A study of Capra hircus with 9 samples.

Results

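The 10 genes described here make milk triglyceride in the mammary gland or package it for secretion: GPAM, GPAT4, LPIN1, DGAT1, DGAT2, PLIN2, CIDEA, XDH, BTN1A1 and MFGE8. They were taken by symbol from the 23499 genes of the deposited expression table, in which AGPAT6 is written GPAT4, and all 10 were found. The RNA came from mammary gland of healthy Laoshan dairy goats of the third parity, averaging 4 years of age and kept on 1 farm under its standard feeding. Tissue was taken in late lactation (LL, 240 days postpartum, n = 3), in the dry period (DP, 300 days postpartum, n = 3) and in late gestation (LG, 140 days after mating, n = 3). Each library was made from total RNA of whole gland tissue with a TruSeq kit, so every value is a mixture of all cell types in the piece sampled. No treatment is named, and lactation state, pregnancy and time since birth change together between the stages and cannot be told apart.

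Secretory epithelial cells build triglyceride in the endoplasmic reticulum. A first fatty acid is joined to glycerol-3-phosphate by an acyltransferase (GPAM at mitochondria, GPAT4 at the endoplasmic reticulum), a second follows, the phosphate is removed by a lipin such as LPIN1, and DGAT1 or DGAT2 adds the last fatty acid. The product collects in droplets coated by PLIN2 and enlarged by fusion, in which CIDEA takes part, and the droplets leave the cell wrapped in apical membrane, where BTN1A1 and XDH are found together and MFGE8 is a surface protein.

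The table gives expression in FPKM, fragment counts that are normalized for transcript length and library size, so levels of different genes can be set side by side within a library. The table holds no read counts, so the depth of each library is not known from it and no counting error can be given. The 10 most abundant genes held 80.6 to 86.0% of the summed FPKM in LL, 53.6 to 58.1% of it in DP and 55.0 to 58.5% of it in LG. For comparisons between libraries the values were therefore divided by a median-ratio scaling factor, which was 0.498 to 0.605 (LL), 1.44 to 1.53 (DP) and 1.198 to 1.31 (LG). Log2 fold changes are of scaled FPKM + 1, which understates the change of genes near 0, and a gene was called where limma's p, adjusted by Benjamini-Hochberg, was under 0.05 and the log2 fold change reached 1 in either direction. Replicates are separate goats, and the p-values measure the spread between these 9 libraries only.

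In DP, 8 of the 10 genes were called lower than in LL and 0 were called higher, where 8.79% of the 14701 genes tested were called lower and 13.8% higher. In LG, 6 of the 10 were called lower than in LL and 0 higher, beside 6.61% lower and 10.7% higher among all genes tested. From DP to LG, 7 of the 10 were called higher and 1 lower, beside 6.37% and 6.88%. No member had an unadjusted limma p under 0.05 in the higher direction against LL in either comparison, so that count is 0 there too. The median log2 fold change of the 10 was -4.16 for DP against LL, -1.86 for LG against LL and 2.22 for LG against DP, where the medians of all genes tested were 0.0041, 0.019 and 0.0083. Median-ratio scaling itself sets the medians of all genes near 0, so they are no independent background. With no scaling the medians of all genes tested were 1.09, 0.93 and -0.18. Each stage enters 2 of these 3 comparisons, so the 3 sets of values are not independent of each other.

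After scaling, 6 genes stood in the order LL, LG, DP from high to low (GPAT4, DGAT1, XDH, BTN1A1, CIDEA and MFGE8), with no overlap between neighbouring stages. How many of all genes tested stand in such an order was not counted, so the 6 are described without a background. GPAM and PLIN2 stood in the order LG, LL, DP, with LG and LL overlapping. LPIN1 had DP above LG with no overlap, and DGAT2 had the same order, with LL above LG and DP overlapping with both. The lower panel of the plot of levels by library shows these scaled values.

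**Figure D1:**
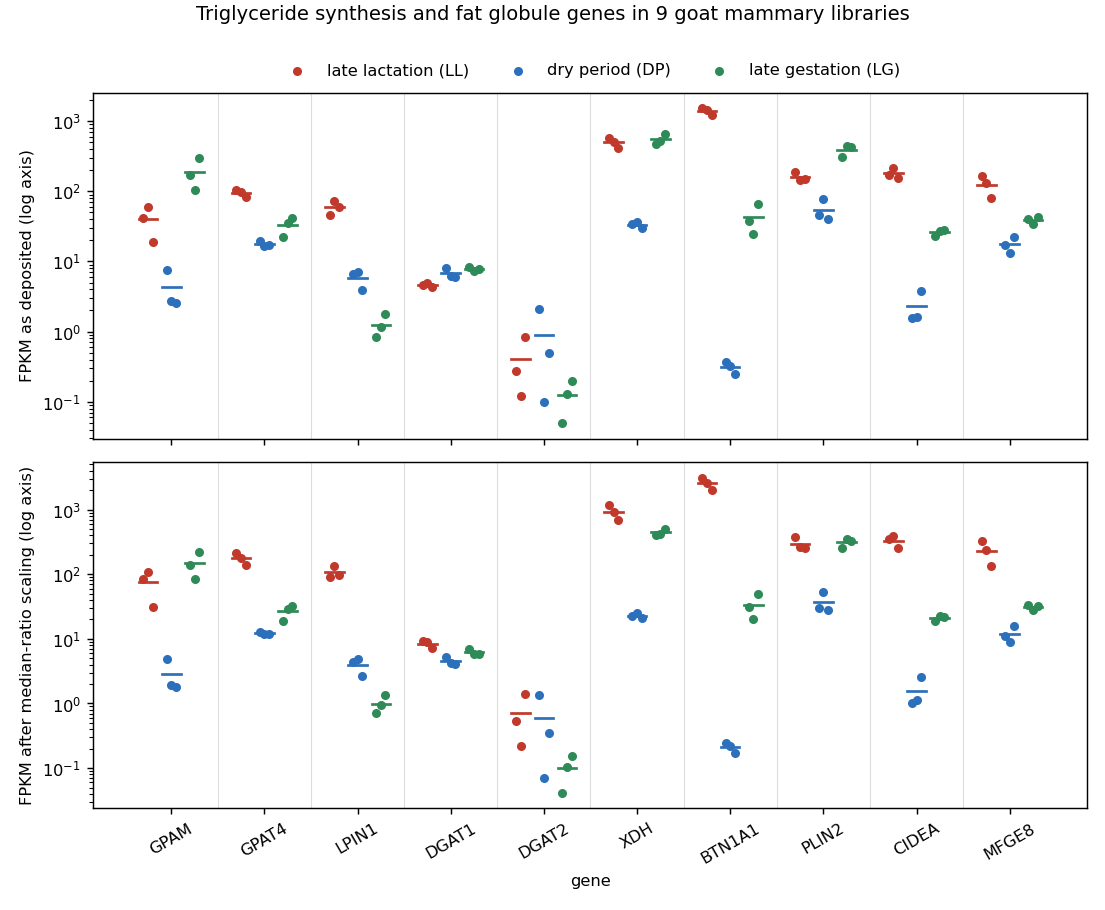
Level of each of the 10 genes (horizontal axis) in 9 goat mammary libraries, as deposited FPKM (upper panel) and after median-ratio scaling (lower panel), both on log axes; points are libraries and short lines are stage means (LL red, DP blue, LG green, n = 3 each). BTN1A1 spans from 0.25 FPKM in DP to 1522 FPKM in LL, while DGAT1 stays between 4.36 and 8.21 FPKM.

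GPAM and GPAT4, which catalyse the same first acylation, differed in stage order. GPAM (gene ID 102176386, goat assembly ARS1.2 chromosome 26, 19247024 to 19317263, plus strand) was at 42.2, 59.6 and 19.0 FPKM in the LL libraries, 7.45, 2.77 and 2.59 FPKM in DP and 168, 105 and 295 FPKM in LG. The DP libraries lay below all others, and in deposited FPKM the LG libraries lay above all others. After scaling, LG (85.4 to 224) and LL (31.3 to 108) overlapped. GPAM fell by 4.21 (SE 0.50, log2) from LL to DP, with a limma adjusted p of 0.000111, and rose by 5.27 (SE 0.50) in LG against DP, with a limma adjusted p of 0.000118. LG against LL gave 1.06 (SE 0.50), with a 95% interval from -0.06 to 2.18 and a limma adjusted p of 0.103, and was not called. With no scaling that comparison was called at 2.22, and with quantile normalization at 1.44. Without LL replicate 3, the lowest LL library for GPAM, it was 0.53.

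GPAT4 (gene ID 100861270, chromosome 27, 9070924 to 9101551, minus strand) was at 106, 99.0 and 83.0 FPKM in LL, 19.7, 16.8 and 17.2 FPKM in DP and 22.6, 35.8 and 41.8 FPKM in LG. The 3 stages did not overlap on either scale, with LL highest and DP lowest. GPAT4 fell by 3.73 (SE 0.22, log2) from LL to DP (limma adjusted p 3.09e-06) and fell by 2.70 (SE 0.22) in LG against LL (limma adjusted p 2.11e-05). In LG against DP it rose by 1.04 (SE 0.22; limma adjusted p 0.00632). That last value lies close to the threshold of 1: it was 0.82 with no scaling, 0.89 with quantile normalization, 0.98 with scaling on luminal markers, 0.95 without LG replicate 2 and 0.89 without LG replicate 3, and was not called in any of these.

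Because both genes were measured in the same library, their ratio needs no scaling. GPAT4 exceeded GPAM in every LL and DP library and was below it in every LG library. The mean log2 ratio of GPAT4 to GPAM was 1.40 ± 0.70 (SD, n = 3) in LL, 2.24 ± 0.73 in DP and -2.42 ± 0.75 in LG, which are geometric means of 2.63 and 4.74 GPAT4 per GPAM in LL and DP, and 5.37 GPAM per GPAT4 in LG. LG did not overlap with LL or with DP (exact two-sided permutation p 0.1 for each, the smallest that 3 against 3 libraries can give), while LL and DP overlapped (exact p 0.2).

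LPIN1, the phosphatidate phosphatase of the lipin family that comes before the last step, was the member called lower in LG than in DP. It was at 45.7, 73.6 and 59.3 FPKM in LL, 6.66, 7.03 and 3.89 FPKM in DP and 0.84, 1.16 and 1.76 FPKM in LG (gene ID 102180603, chromosome 11, 85672771 to 85800434, minus strand). The 3 stages were separate, and LPIN1 ranked 356 of 23499 genes by mean FPKM in LL and 13572 in LG. It fell by 4.45 (SE 0.21, log2) from LL to DP (limma adjusted p 9.1e-07), fell by 5.76 (SE 0.21) in LG against LL (limma adjusted p 4.54e-07) and fell by 1.31 (SE 0.21) in LG against DP (limma adjusted p 0.00165). The other lipins had lower levels in LL, with LPIN2 at 3.18 to 5.0 FPKM and LPIN3 at 1.62 to 2.16 FPKM. Neither was called in any comparison: their log2 fold changes in DP against LL, LG against LL and LG against DP were -0.08, 0.06 and 0.14 for LPIN2 and -0.37, -0.26 and 0.11 for LPIN3. The difference between LPIN1 and its relatives was not tested.

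LPIN1 and GPAM thus moved apart in LG, and their ratio was added after the values had been seen. The mean log2 ratio of LPIN1 to GPAM was 0.69 ± 0.83 (SD, n = 3) in LL, 0.59 ± 0.75 in DP and -7.18 ± 0.60 in LG, which is 145 GPAM per LPIN1 in LG. LL and DP overlapped, and LG was apart from both, with differences of -7.87 from LL and -7.77 from DP on the log2 scale.

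DGAT1 and DGAT2, the enzymes of the final acylation, were not called in any comparison. DGAT1 (gene ID 100861225, chromosome 14, 81329989 to 81338811, minus strand) was at 4.63, 4.91 and 4.36 FPKM in LL, 8.12, 6.16 and 5.93 FPKM in DP and 8.21, 7.30 and 7.70 FPKM in LG. In deposited FPKM the LL libraries were thus the lowest, whereas after scaling they were the highest, at 8.46 ± 1.11 (SD, n = 3) against 4.57 ± 0.65 in DP and 6.21 ± 0.56 in LG. The log2 fold change was -0.76 (SE 0.14) for DP against LL, with a limma adjusted p of 0.00135, and -0.39 (SE 0.14) for LG against LL, with a limma adjusted p of 0.0394. Both were under the threshold of 1 in size, and with no scaling their signs turned, to 0.45 and 0.63. LG against DP gave 0.38 (SE 0.14) with a limma adjusted p of 0.0584.

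DGAT2 (gene ID 102174409, chromosome 15, 27720879 to 27753736, minus strand) was at 0.27, 0.12 and 0.85 FPKM in LL, 2.08, 0.10 and 0.50 FPKM in DP and 0.05, 0.13 and 0.20 FPKM in LG. It reached 0.5 FPKM in 3 libraries, the least number that let it be tested, and its stages overlapped in FPKM. DP against LL gave a log2 fold change of -0.14 (SE 0.31), with a 95% interval from -0.83 to 0.56 and a limma adjusted p of 0.724. LG against LL gave -0.59 and LG against DP -0.45 (SE 0.31 for each; limma adjusted p 0.142 and 0.284). DGAT1 exceeded DGAT2 in all 9 libraries, by 3.90-fold in DP replicate 1 to 164-fold in LG replicate 1.

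DP replicate 1 was also the library with the most adipocyte transcripts. The adipocyte list had 6 of 7 genes in the table, and their summed level was 36.0 FPKM in that library, 5.26 and 5.94 FPKM in the other DP libraries, 3.88 to 6.26 FPKM in LL and 3.47 to 7.09 FPKM in LG. Among the defining markers in DP replicate 1, ADIPOQ was at 19.3 FPKM and PLIN1 at 5.83 FPKM, against 0.08 to 1.72 FPKM and 0.05 to 0.41 FPKM elsewhere, and LEP was listed at 0 in every LL library. CIDEC, the other defining marker, was at 5.11 FPKM there and at 1.00 to 2.46 FPKM elsewhere, but after scaling it was at 3.34 there and at 3.09 in LL replicate 3. PLIN4 was at 1.2 FPKM there and at 0.03 to 0.52 FPKM elsewhere, whereas LIPE, at 3.65 FPKM, was higher in LL replicate 3 (3.91 FPKM) and in LG replicate 3 (5.42 FPKM). The part of adipocytes in the values of the 10 genes was not tested. GPAM, GPAT4, DGAT1, DGAT2 and BTN1A1 were higher in this library than in the other DP libraries. LPIN1, XDH, PLIN2, CIDEA and MFGE8 were not. Without DP replicate 1, GPAM in DP against LL was -4.52 on the log2 scale, and DGAT2 could not be tested because it then passed the filter in too few libraries.

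**Figure D2:**
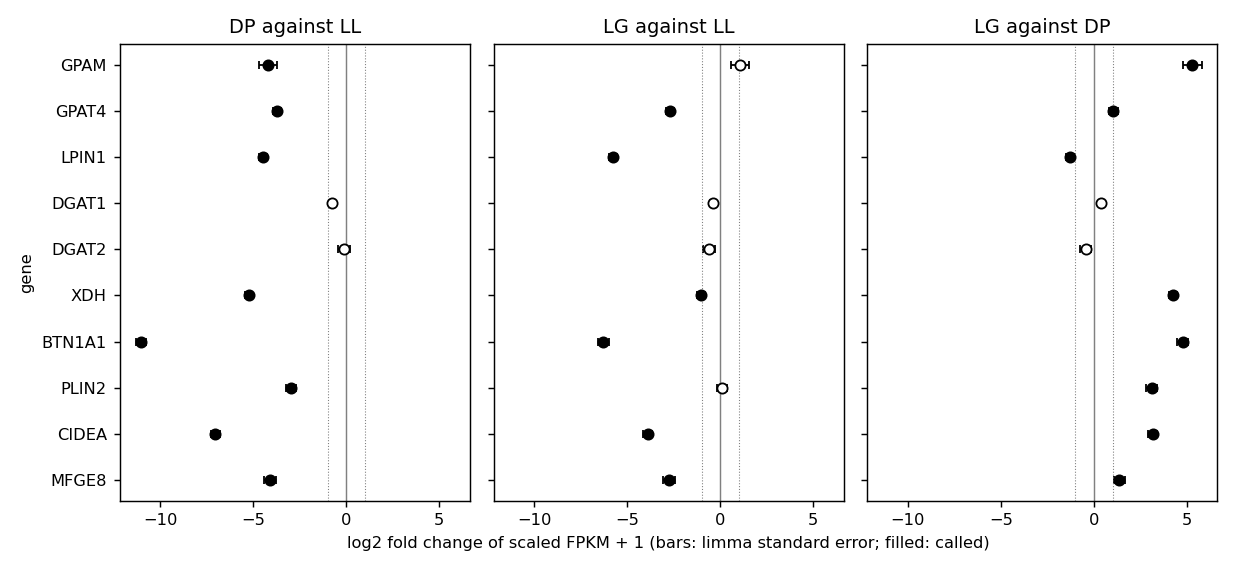
Log2 fold change of scaled FPKM + 1 (horizontal axis) of the 10 genes in DP against LL, LG against LL and LG against DP; bars are the limma standard error, filled points are called, open points are not, and dotted lines mark -1 and 1. The values run from -11.03 for BTN1A1 in DP against LL to 5.27 for GPAM in LG against DP, and DGAT1 and DGAT2 are open in all 3 panels.

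PLIN2, the coat protein of cytoplasmic lipid droplets, kept the highest level of the 10 genes in DP. It was at 187, 145 and 151 FPKM in LL, 46.4, 77.8 and 40.2 FPKM in DP and 309, 436 and 434 FPKM in LG (gene ID 100861245, chromosome 8, 24993362 to 25008062, plus strand). DP lay below both other stages, and LG lay above LL in deposited FPKM but overlapped with it after scaling (258 to 353 against 250 to 376). PLIN2 fell by 2.99 (SE 0.27, log2) from LL to DP (limma adjusted p 2.46e-05) and rose by 3.08 (SE 0.27) in LG against DP (limma adjusted p 8.51e-05). LG against LL gave 0.10 (SE 0.27), with a 95% interval from -0.51 to 0.71 and a limma adjusted p of 0.789. With no scaling it was called at 1.27, and without LL replicate 3 it was -0.02.

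CIDEA, which promotes fusion of lipid droplets, was at 172, 217 and 155 FPKM in LL, 1.58, 1.61 and 3.75 FPKM in DP and 22.9, 27.6 and 28.4 FPKM in LG (gene ID 102178127, chromosome 24, 43145747 to 43158263, plus strand). The 3 stages were separate. CIDEA fell by 7.03 (SE 0.24, log2) from LL to DP (limma adjusted p 1.09e-07) and fell by 3.89 (SE 0.24) in LG against LL (limma adjusted p 4.67e-06), and rose by 3.14 (SE 0.24) in LG against DP (limma adjusted p 4.79e-05). Its relatives CIDEB and CIDEC were at 1.5 to 2.64 FPKM and 1.00 to 5.11 FPKM over the 9 libraries and were not called in any comparison.

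BTN1A1, butyrophilin, had the largest fall of the 10 genes from LL to DP. It was at 1522, 1446 and 1230 FPKM in LL, 0.37, 0.32 and 0.25 FPKM in DP and 37.5, 24.6 and 65.7 FPKM in LG (gene ID 100860762, chromosome 23, 18384020 to 18391213, plus strand). The stages were far apart, and by mean FPKM BTN1A1 ranked 19 of 23499 genes in LL and 15946 in DP. It fell by 11.03 (SE 0.29, log2) from LL to DP (limma adjusted p 2.16e-08) and fell by 6.28 (SE 0.29) in LG against LL (limma adjusted p 1.28e-06), and rose by 4.75 (SE 0.29) in LG against DP (limma adjusted p 1.23e-05). The DP level lies under the pseudocount of 1, so the 2 values that involve DP depend on it, and with a pseudocount of 0.1 the fall was 12.99 and the rise 6.67.

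XDH, xanthine dehydrogenase, which joins BTN1A1 at the apical membrane, was at 576, 512 and 411 FPKM in LL, 33.9, 36.1 and 30.02 FPKM in DP and 476, 524 and 662 FPKM in LG (gene ID 100861280, chromosome 11, 14029412 to 14097708, minus strand). In deposited FPKM, LL and LG overlapped. After scaling they did not, at 679 to 1158 in LL and 397 to 503 in LG. XDH fell by 5.25 (SE 0.21, log2) from LL to DP (limma adjusted p 2.95e-07) and rose by 4.22 (SE 0.21) in LG against DP (limma adjusted p 3.96e-06). The value for LG against LL was -1.03 (SE 0.21; limma adjusted p 0.00317), which was called but depends on the scaling: it was 0.15 with no scaling, -0.78 with quantile normalization, -0.86 without LL replicate 1 and -0.96 without LG replicate 1, and in none of these was it called.

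MFGE8, lactadherin, was at 163, 131 and 80.5 FPKM in LL, 17.0, 13.1 and 22.5 FPKM in DP and 40.5, 34.4 and 42.7 FPKM in LG (gene ID 100861394, chromosome 21, 19767792 to 19795415, minus strand). The stages did not overlap. It fell by 4.11 (SE 0.31, log2) from LL to DP (limma adjusted p 9.11e-06) and fell by 2.76 (SE 0.31) in LG against LL (limma adjusted p 0.000111), and rose by 1.35 (SE 0.31) in LG against DP (limma adjusted p 0.00852). EDIL3, its relative with the same domain types, went the other way in DP. EDIL3 was at 0.89, 2.0 and 2.25 FPKM in LL, 15.1, 12.4 and 16.6 FPKM in DP and 2.90, 3.54 and 3.45 FPKM in LG, and it rose by 1.48 (SE 0.20) in DP against LL (limma adjusted p 0.00025).

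The summed level of the 10 genes was 2194 to 2820 FPKM in LL, 127 to 162 FPKM in DP and 1086 to 1578 FPKM in LG, and its make-up changed with the stage. In LL, BTN1A1 held 54.6 ± 1.26% (SD, n = 3) of the sum and XDH 19.4 ± 0.91%. In DP, PLIN2 held 37.4 ± 9.26%, XDH 23.2 ± 0.79% and BTN1A1 0.218 ± 0.035%. In LG, XDH held 43.2 ± 1.09%, PLIN2 30.8 ± 4.91%, GPAM 14.3 ± 5.03% and BTN1A1 3.23 ± 1.07%. BTN1A1 thus led the sum in LL, PLIN2 in DP and XDH in LG.

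**Figure D3:**
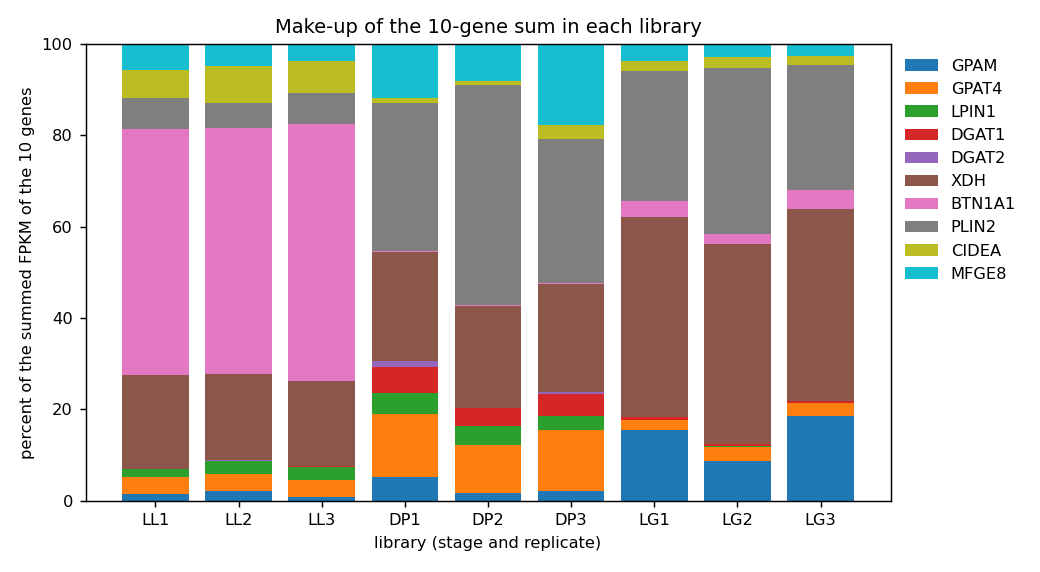
Percent of the summed FPKM of the 10 genes held by each gene (vertical axis) in each library (horizontal axis, stage and replicate number). BTN1A1 fills 54.6% on average in LL and 3.23% in LG, where XDH (43.2%), PLIN2 (30.8%) and GPAM (14.3%) hold most of the bar.

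Within libraries, the pairs of the secretion step showed the same shift without scaling. The mean log2 ratio of XDH to BTN1A1 was -1.49 ± 0.09 (SD, n = 3) in LL, 6.75 ± 0.20 in DP and 3.80 ± 0.55 in LG, so that BTN1A1 was 2.82-fold above XDH in LL, and XDH was 107-fold above BTN1A1 in DP and 13.9-fold above it in LG. The ratio of PLIN2 to BTN1A1 had log2 means of -3.12 ± 0.17, 7.41 ± 0.48 and 3.30 ± 0.75. The 3 stages were separate in both ratios. Each DP ratio divides by a BTN1A1 level of 0.25 to 0.37 FPKM, whose precision is not known. With a pseudocount of 1, the log2 difference of XDH to BTN1A1 in LG against DP was -0.94 in place of -2.95. That of PLIN2 to BTN1A1 was -2.08 in place of -4.10. In DP against LL they were 6.20 in place of 8.24 and 8.47 in place of 10.53.

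BTN1A1 was also set against CSN2, the beta-casein gene of milk, which itself fell by 12.97 (log2) from LL to DP and, in LG against LL, fell by 5.45. The mean log2 ratio of BTN1A1 to CSN2 was -6.07 ± 0.06 (SD, n = 3) in LL, -6.58 ± 0.92 in DP and -6.95 ± 0.89 in LG. DP overlapped with LL and with LG (exact two-sided permutation p 0.5 and 0.6), while LG lay 0.87 below LL with no overlap (exact p 0.1). GPAM against CSN2 had log2 means of -11.34 ± 0.70 in LL, -2.98 ± 1.11 in DP and -4.81 ± 0.93 in LG, with LL apart from both other stages and DP and LG overlapping. Over 7 ratios and 21 comparisons, 14 had no overlap, each with an exact p of 0.1 and a Benjamini-Hochberg adjusted p of 0.15, so none passes 0.05 in this design; LPIN1 to GPAM, chosen for its values, was not tested.

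**Figure D4:**
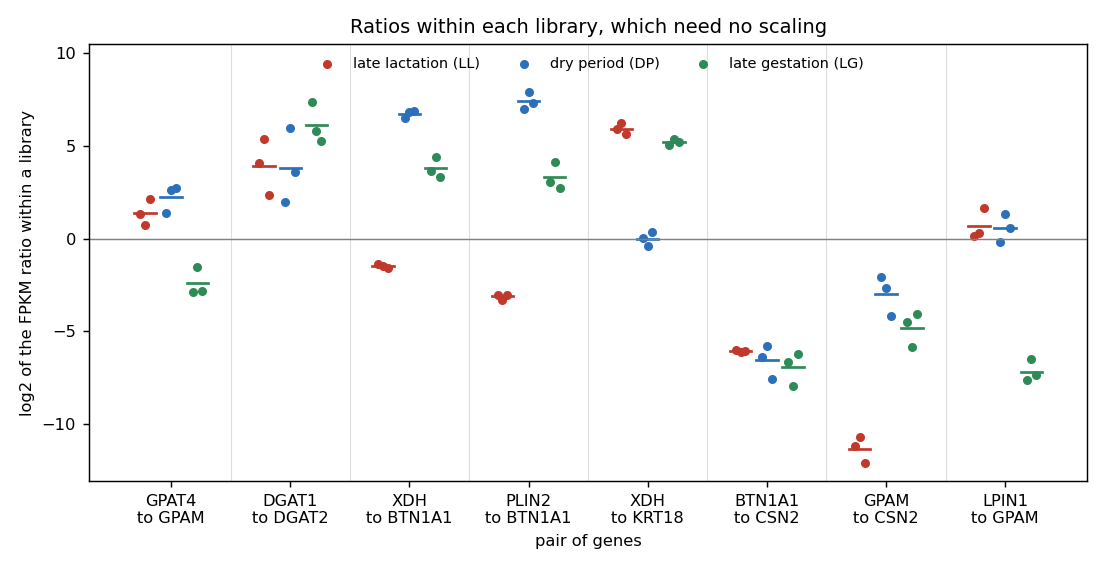
Log2 of the FPKM ratio of 8 gene pairs within each library (vertical axis; LL red, DP blue, LG green, points are libraries and lines are stage means, n = 3). GPAT4 to GPAM changes sign between LL or DP and LG, XDH to BTN1A1 runs from -1.49 in LL to 6.75 in DP, and BTN1A1 to CSN2 lies between -7.94 and -5.78 in all 9 libraries.

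In whole tissue, fewer epithelial cells and less RNA per epithelial cell cannot be told apart. The summed scaled level of 9 luminal epithelial markers was 467 to 529 (LL), 370 to 657 (DP) and 463 to 573 (LG), so the stages overlapped. By limma 0 of the 9 was called in DP against LL or in LG against LL. At an unadjusted limma p under 0.05, 2 were higher and 2 lower in DP against LL, and 1 higher and 1 lower in LG against LL. In LG against DP, 1 of the 9 was called, CLDN3 at 1.34. Against KRT18, a keratin of luminal cells, the mean log2 ratio of XDH was 5.93 ± 0.28 (SD, n = 3) in LL, -0.01 ± 0.38 in DP and 5.20 ± 0.15 in LG, or 60.8, 0.990 and 36.8 XDH per KRT18. KRT18 itself was 0.60 higher (log2) in DP than in LL and was not called (limma adjusted p 0.0708), which adds to the fall of this ratio. Other luminal markers went the other way, such as EPCAM at -0.74 (limma adjusted p 0.0257). With the libraries scaled on the luminal markers, all 8 falls in DP against LL were still called.

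Of the markers of other cell types, some of those of fibroblasts and leukocytes were called higher in DP than in LL. The scaled sum of 6 fibroblast genes was 212 to 324 (LL), 502 to 2392 (DP) and 521 to 954 (LG), and 5 of the 6 were called higher in DP than in LL. Of 6 leukocyte genes, 5 were tested and 3 were called higher in DP than in LL, with scaled sums of 94.4 to 132 (LL), 212 to 373 (DP) and 99.9 to 128 (LG). Endothelial sums were 92.4 to 124, 111 to 158 and 57.3 to 80.3, and basal and myoepithelial sums were 180 to 234, 136 to 453 and 225 to 304. These sums include PECAM1, KRT5 and KRT14, whose values are tied to those of neighbouring genes and are not separate measurements. Of the 5 endothelial genes 0 was called in any comparison, with 1, 2 and 3 at an unadjusted limma p under 0.05 in DP against LL, LG against LL and LG against DP. Of 6 basal genes 1, 2 and 1 were called higher in these comparisons. Among all genes tested, 13.8, 10.7 and 6.37% were called higher. The part of these cells in the results of the 10 genes was not tested.

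Other genes of the pathway were taken from fixed lists of 51 genes, of which 48 were in the table. For all genes tested, 8.79% were called lower and 13.8% higher in DP against LL. The shares were 6.61 and 10.7% in LG against LL, and 6.88 and 6.37% in LG against DP. Of the other triglyceride synthesis genes, 12 were tested. In DP against LL, 4 of the 12 fell and 0 rose, while GPAT3 and AGPAT2 were higher by 0.94 and 0.89 on the log2 scale with limma adjusted p of 0.00102 and 0.00203, so that they missed the fold threshold alone. GPAT3 reached 0.5 FPKM in every DP library and elsewhere only in LG replicate 3 (0.61 FPKM). It was thus tested through the stage where it is high, and its p cannot be read as support. The number called higher was 1 without LL replicate 2, LL replicate 3, DP replicate 1 or DP replicate 2, and 2 with a pseudocount of 0.1. GPAT3 stays among the 12, in the list's median and in all these counts, so the numbers called higher cannot be read as support either. In LG against LL, 2 fell and 0 rose (1 higher at an unadjusted p under 0.05), and in LG against DP, 3 rose and 1 fell. The list's median log2 fold changes were -0.57, -0.21 and 0.17. With no scaling, 4 of the list were called higher in DP against LL and 3 in LG against LL.

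Among the acyltransferases of the second step, AGPAT4 was at 11.1, 7.38 and 7.24 FPKM in LL, 2.47, 1.32 and 1.57 FPKM in DP and 13.8, 20.4 and 42.4 FPKM in LG, an order like that of GPAM. AGPAT4 fell by 2.90 (SE 0.34; limma adjusted p 0.000105) in DP against LL and rose by 3.15 (SE 0.34; limma adjusted p 0.000203) in LG against DP, with 0.25 in LG against LL (limma adjusted p 0.558). AGPAT1, which acts on the same substrate, fell by 2.74 in DP against LL and by 1.55 in LG against LL, and rose by 1.19 in LG against DP (SE 0.19 for each). AGPAT2, another enzyme of that step, was at 1.23 to 2.11 FPKM in LL, 8.01 to 11.8 FPKM in DP and 3.22 to 3.67 FPKM in LG, and it fell by 1.06 (SE 0.17) in LG against DP, a call lost under quantile normalization and without DP replicate 3. AGPAT3, a further relative, was not called in any comparison, at -0.76, -0.61 and 0.15.

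The supply of glycerol-3-phosphate includes the dehydrogenase-like enzyme GPD1L and glycerol kinase, GK. GPD1L fell by 2.05 (SE 0.15) in DP against LL and rose by 1.66 (SE 0.15) in LG against DP, with -0.39 in LG against LL (limma adjusted p 0.0561). GK fell by 2.82 in DP against LL and by 2.90 in LG against LL (SE 0.16 for each), at 4.55 to 7.44 FPKM in LL, 0.62 to 1.17 FPKM in DP and 0.47 to 0.86 FPKM in LG. In every library the value of GK is that of a neighbouring gene less an amount of 1 to 1.5 FPKM fixed for that library, and the same amounts recur between 388 pairs of neighbours in the table, so the values of such a pair are not separate measurements; none of the 10 genes is in one. GPAT2 and GPAT3, the other first-step acyltransferases, were at 0.07 to 2.61 FPKM and 0.00 to 2.42 FPKM and were not called.

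Of the other droplet and fat globule genes, 13 of 16 were tested. In DP against LL, 8 fell and 1 rose. BSCL2, among those that fell, has values tied to those of a neighbouring gene. In LG against LL, 5 fell and 0 rose (0 also at an unadjusted p under 0.05), and in LG against DP, 6 rose and 1 fell. Beside these counts, 8.79, 6.61 and 6.88% of all genes tested were called lower in the 3 comparisons, and 13.8, 10.7 and 6.37% higher. The list's medians were -1.85, -0.69 and 0.42. With no scaling, 2 were called higher in DP against LL, and 3 higher and 3 lower in LG against LL. FABP3, the carrier of fatty acids in the cytosol, was at 1216, 1506 and 638 FPKM in LL, 6.10, 1.86 and 2.47 FPKM in DP and 127, 143 and 395 FPKM in LG, and it fell by 9.25 (SE 0.49; limma adjusted p 1.69e-06) in DP against LL. The fatty acid transporter CD36 was at 159 to 216 FPKM in LL, 17.2 to 30.2 FPKM in DP and 225 to 292 FPKM in LG.

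CD36 fell by 4.30 (SE 0.23) in DP against LL and rose by 3.61 (SE 0.23) in LG against DP, with -0.69 in LG against LL (limma adjusted p 0.034), under the fold threshold. The membrane mucins differed from each other in LG. MUC15 fell by 4.94 in DP against LL and by 2.45 in LG against LL and rose by 2.49 in LG against DP (SE 0.31 for each). MUC1 fell by 3.66 and 3.32 in DP and LG against LL and was not called in LG against DP, at 0.34 (SE 0.29; limma adjusted p 0.38). A test of the difference between the mucins was not run.

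RAB18, a small GTPase of lipid droplets, fell by 3.39 in DP against LL and by 1.99 in LG against LL and rose by 1.40 in LG against DP (SE 0.22 for each). The folate receptor FOLR1, at 1.73 to 4.56 FPKM in LL, 0.00 to 0.10 FPKM in DP and 7.85 to 10.1 FPKM in LG, fell by 2.52 in DP against LL and rose by 3.01 in LG against DP (SE 0.24 for each). PLIN3, a droplet coat protein related to PLIN2, fell by 1.85 (SE 0.42) in DP against LL and rose by 2.21 (SE 0.42) in LG against DP, and LG replicate 3 alone held 209 FPKM of it beside 56.2 and 73.5 FPKM in the other LG libraries. PLIN1 and PLIN4 were at or under 0.52 FPKM outside DP replicate 1, where they were at 5.83 and 1.2 FPKM, and PLIN5 was listed at 0 in all 9 libraries.

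Of the regulators of milk fat genes, 11 of 14 were tested, and most were not called. In DP against LL, 3 fell and 0 rose (1 higher at an unadjusted p under 0.05). In LG against LL, 1 fell and 0 rose (3 higher at an unadjusted p under 0.05), and in LG against DP, 1 rose and 0 fell (1 lower at an unadjusted p under 0.05). Beside these counts, 8.79, 6.61 and 6.88% of all genes tested were called lower in the 3 comparisons, and 13.8, 10.7 and 6.37% higher. The counts of 1 of 11 lie near those shares, so no result about the list is read from them. The list's medians were -0.38, -0.18 and 0.42, and with no scaling 3 and 4 of the list were called higher in DP and in LG against LL.

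ELF5, a transcription factor of alveolar cells, was at 335, 374 and 266 FPKM in LL, 39.5, 63.7 and 37.6 FPKM in DP and 540, 504 and 654 FPKM in LG. ELF5 fell by 4.19 (SE 0.25; limma adjusted p 3.13e-06) in DP against LL and rose by 3.82 (SE 0.25; limma adjusted p 2.09e-05) in LG against DP. INSIG1, which holds the lipogenic factor SREBP in the endoplasmic reticulum, fell by 3.65 in DP against LL and by 2.50 in LG against LL (SE 0.42 for each). SREBF1, the gene of that factor, was at 5.08 to 7.13 FPKM in LL, 6.73 to 7.34 FPKM in DP and 8.21 to 13.6 FPKM in LG, with a scaled log2 fold change of -1.07 (SE 0.17; limma adjusted p 0.00065) in DP against LL, close to the threshold. With no scaling, and also without LL replicate 2, the regulators that fell in this comparison numbered 2. PPARG, a nuclear receptor of fat synthesis, was not called, at -0.21, -0.18 and 0.02 (SE 0.13 for each).

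**Figure D5:**
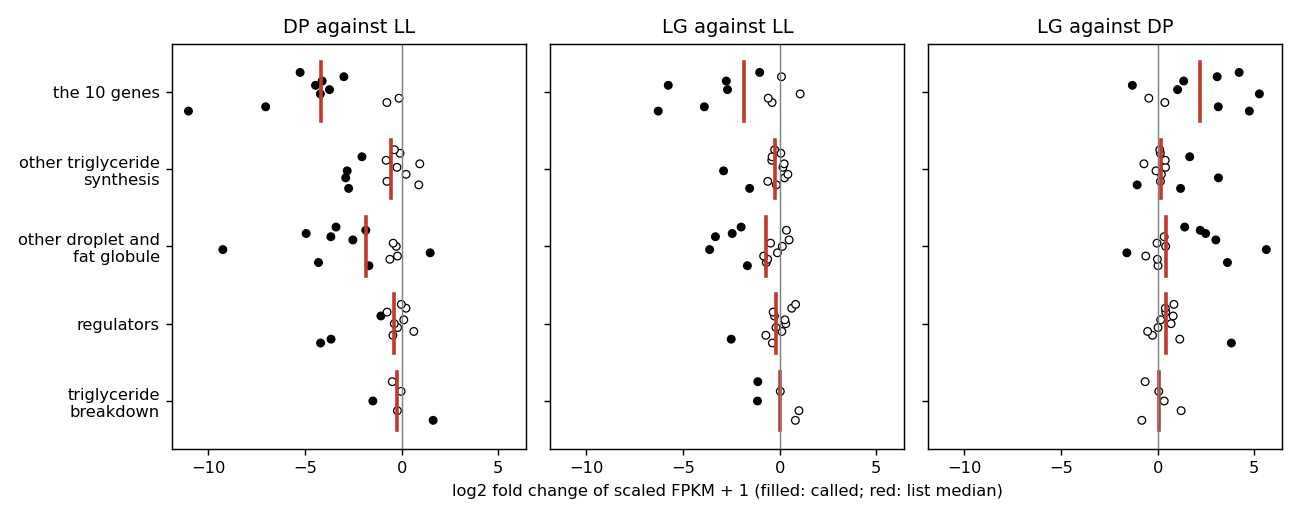
Log2 fold change of scaled FPKM + 1 (horizontal axis) of the genes tested in the 10-gene set and in 4 lists of related genes, for the 3 comparisons; points are genes, filled where called, and red bars are list medians. In DP against LL the 10 genes have a median of -4.16 and the lists lie between -1.85 and -0.22; PNPLA3, listed at 0 in DP and LG, is neither drawn nor in a median.

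Genes with the most similar profiles were found as those whose scaled log2 values, centred on their own mean, differed least from a member's over the 9 libraries, by root mean square and among 10814 genes. The 10814 were genes tested that had a symbol, a minimum mean level in some stage and values not tied to those of a neighbouring gene. For BTN1A1 the nearest were GLYCAM1 (0.90) and FABP3 (1.18), and for XDH they were the glucose transporter genes SLC2A4 (0.30) and SLC2A8 (0.34). MFGE8 was nearest to SLC39A8 (0.32) and to GPAT4 (0.37), another of the 10 genes, while GPAT4 was nearest to ACSS1 (0.25) and AQP3 (0.31). For GPAM they were MSTN (0.57) and SLC27A5 (0.64), for LPIN1 TGM3 (0.65) and PROM2 (0.65), for CIDEA ATP2C2 (0.45) and C3H2orf82 (0.57), and for PLIN2 SOWAHB (0.37) and STON2 (0.38). DGAT1 lay nearest to IZUMO4 (0.10) and DERL2 (0.11) and DGAT2 to SH3BP1 (0.23) and FOXN2 (0.27). The difference tends to be small for a member that varies little or lies near 0, as DGAT1 and DGAT2 do. Its size is therefore not comparable between members. Of the 20 nearest genes, 15 were found again with no scaling, and those of DGAT1 and DGAT2 and FABP3 for BTN1A1 were not.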

How the data were processed

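The authors sequenced mammary RNA on an Illumina platform and processed the reads with FastQC, Trimmomatic, HISAT2, SAMtools, StringTie and HTSeq, per the labels and the study's methods. The deposited table holds 1 value per gene and library. Its unit is taken as FPKM, the measure the study gives for transcripts, since the values have decimals and sum to 601250 to 1157015 per library. How transcripts were merged into genes is not given in the sources used here. The gene IDs of 23465 of the 23499 genes matched RefSeq annotation of ARS1.2, with the same start and end for each, and no column was left unused.

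Values were divided by median-ratio factors computed over 15905 genes, 1 was added and log2 taken. A gene entered the test where 3 or more libraries reached 0.5 FPKM. The test was limma (version 3.58.1, R 4.3.3), with lmFit, contrasts.fit and a trended eBayes over all 9 libraries and Benjamini-Hochberg adjustment over 14701 genes. Calls followed the study's thresholds, 0.05 for the adjusted p and 1 for the size of the log2 fold change. The fit was tested on simulated data. Ratios within a library used deposited FPKM and exact permutation tests. A gene was marked as linked where a straight line on 1 of its 8 next neighbours on the same strand, in either direction, plus the set of 9 differences that recurs most between neighbours (388 pairs), left no residual above 1% of its range. This marked 1459 genes, none of the 10, and 4 genes of the pathway lists: GPD1, GK, FITM1 and BSCL2. Of the cell type markers, KRT5, KRT14 and PECAM1 were also marked. Named from the pathway lists were the 3 largest called changes of each list and comparison, close relatives of the 10, SREBF1, PPARG and the linked genes. RAB18 was named outside this rule, so its mention does not mean that it stands out in its list. The 10 genes, the lists and the ratios were chosen with earlier results of these data known, and the ratio of LPIN1 to GPAM after its values were seen.

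Alternatives were no scaling, quantile normalization, scaling on luminal markers, a pseudocount of 0.1, no filter or 2 FPKM in 3 libraries, only the 2 stages compared, no trend, replicate number as a block, linked genes left out, adjusted p alone, and each library left out. Replicate numbers are shared between stages, but the goats differ, so the libraries were not treated as pairs. Deviations of same-numbered libraries correlated at -0.11 to 0.20. Of the 9 libraries, 6 correlated most, among libraries of other stages, with one of their own number.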

Additional observations from a re-analysis of the deposited data

How the results depend on the processing

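Of 556 log2 fold changes of the 10 genes under the alternatives, 539 kept their direction and their side of the threshold, 8 lost the call, 3 gained one and 6 turned sign. All 8 falls in DP against LL stayed called under each alternative, at 8 or 9 genes. With no scaling, the median of all genes tested moved to 1.09 (DP against LL), 0.93 (LG against LL) and -0.18 (LG against DP), DGAT1 turned to 0.45 and 0.63 in the first and second of these, DGAT2 to 0.32 in DP against LL and XDH to 0.15 in LG against LL. The number of the 10 called higher in LG against LL was 2 with no scaling (GPAM and PLIN2) and 1 with quantile normalization (GPAM), in place of 0. With each library left out, DGAT2 in DP against LL ran from -0.38 to 0.11 (highest without DP replicate 2) and PLIN2 in LG against LL from -0.025 to 0.27 (lowest without LL replicate 3). The calls of XDH in LG against LL and of GPAT4 in LG against DP were lost as given above; the cause was not tested.

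The log2 difference in the ratio of DGAT1 to DGAT2 between DP and LL was -0.11, 0.13 with a pseudocount of 1, and -1.17 to 0.82 with each library left out, above 0 without DP replicate 1, DP replicate 3 or LL replicate 2. That of BTN1A1 to CSN2 was -0.51 between DP and LL and 1.53 with a pseudocount of 1, which exceeds BTN1A1 in DP. For LG against DP it was -0.37 and ran from -0.87 to 0.13, above 0 without LG replicate 2 or DP replicate 2. That of LPIN1 to GPAM for DP against LL was -0.10 and ran from -0.47 to 0.38, above 0 without DP replicate 1 or LL replicate 3.

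Over all genes tested, 2029 were called higher and 1292 lower in DP than in LL, 1572 and 972 in LG than in LL, and 937 and 1011 in LG than in DP. With no scaling these were 7979 and 369, 6698 and 345, and 715 and 1577, so that 95.6, 95.1 and 31.2% of calls were higher in place of 61.1, 61.8 and 48.1%. By adjusted p alone they were 4152 and 4207, 3760 and 3623, and 2699 and 2413, and with a pseudocount of 0.1, LG against LL gave 2359 and 1553 and LG against DP 1529 lower. The replicate number as a block changed no call of the 10 genes (GPAM in DP against LL had a limma adjusted p of 0.000274). In LG against DP it gave 2 genes of the regulator list and 1 of the breakdown list called higher, in place of 1 and 0. There were also 2 such regulators under quantile normalization, with a pseudocount of 0.1, with 2 stages only and without LL replicate 2, LL replicate 3 or LG replicate 2. Without LG replicate 3, 1 gene of the breakdown list was again called higher. A place in that list does not say whether a gene speeds or slows breakdown. No read counts are held in the table, so the precision of low values such as those of DGAT2 and of BTN1A1 in DP is not known.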

Other observations

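The genes of triglyceride breakdown were all tested, 6 in number, and PNPLA3 was left out of the counts, a choice made after its values were seen, because it passed the filter through LL alone. Of the other 5, 1 rose and 1 fell in DP against LL, while 2 fell and 0 rose in LG against LL (1 higher at an unadjusted limma p under 0.05), and in LG against DP 0 were called (1 higher and 2 lower at an unadjusted p under 0.05). Beside these counts, 8.79, 6.61 and 6.88% of all genes tested were called lower in the 3 comparisons, and 13.8, 10.7 and 6.37% higher. With 5 genes, no result about the list is read from counts of 1 or 2. PNPLA3, a lipase relative of lipid droplets, was at 7.08, 13.5 and 4.80 FPKM in LL and was listed at 0 in every DP and LG library, so no fold is given. ABHD5, the coactivator of the lipase PNPLA2, was at 0.12, 0.31 and 0.12 FPKM in LL, 5.37, 5.10 and 3.41 FPKM in DP and 2.32, 1.46 and 1.28 FPKM in LG, and rose by 1.63 (SE 0.19; limma adjusted p 9.92e-05) in DP against LL.

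PNPLA2 itself, the first lipase of the pathway, fell by 1.13 (SE 0.29; limma adjusted p 0.00921) in LG against LL, and LIPE, the hormone-sensitive lipase, fell by 1.49 and 1.14 (SE 0.35 for each) in DP and in LG against LL. These calls rest on few libraries: the number called lower in LG against LL was 0 without LL replicate 3, 0 without LG replicate 1, 1 without LG replicate 2 and 0 with no scaling. With no scaling it was also 0 in DP against LL.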
